A study of Sus scrofa with 6 samples.

Results

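The genes described here encode the ATPases and core subunits of the chromatin remodelling complexes of pig embryos at the 4-cell stage. They were taken from the deposited expression table by symbol, without using any measured value: protein-coding genes named SMARCA to SMARCE, CHD1 to CHD9, ARID1A, ARID1B and ARID2, INO80 and its lettered subunits, ACTL6A and ACTL6B, RUVBL1 and RUVBL2, and ATRX, HELLS, BPTF, EP400, SRCAP and PBRM1. The rule was set with earlier results of these data known, and it found 40 of the 30376 genes in the table. The study asked how heat bears on zygotic genome activation, the stage at which the embryo begins transcription of its own. The high temperature group was 3 libraries of 4-cell embryos cultured at 41.5 °C, and the control group was 3 libraries of 4-cell embryos cultured at 38.5 °C. All embryos of both groups came from oocytes that were activated electrically by 2 pulses of direct current (120 V, 60 µs), so no sperm was involved. All were cultured for 4 days under 5% CO2 to reach the 4-cell stage, and about 300 4-cell samples in lysis buffer went into library construction, per the labels, which do not say whether that is per library. The labels' genotype field reads HT for the heated libraries and WT for the controls, and names no strain and no genetic change. Nothing in the labels says that the replicates came from separate cultures, so the p-values below measure only the spread between libraries, which may be technical.

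Chromatin remodellers are ATP-driven machines that slide, evict, space or exchange nucleosomes. The SWI/SNF complexes, called BAF and PBAF in mammals, open chromatin at enhancers and promoters. ISWI complexes space nucleosomes, the CHD family includes the ATPases of the repressive NuRD complex, and INO80, SRCAP and EP400 exchange histone variants such as H2A.Z. An early embryo inherits many of these transcripts from the oocyte and uses the proteins while its own genome is switched on.

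Total counts were 28114005 to 28892695 in the high temperature libraries and 28869484 to 30079385 in the control libraries. The 40 genes took 0.205% to 0.242% of the counts of a high temperature library and 0.199% to 0.237% of those of a control library. The trimmed-mean (TMM) scaling factor, which sets each library's effective size, was 1.005 to 1.09 at high temperature and 0.865 to 1.04 in the controls, with the lowest in control replicate 1. Markers of oocytes and early embryos were read in 10 of 10 cases. They summed to 2651 to 2862 TPM, the authors' length-scaled abundance, at high temperature and 3010 to 3205 TPM in the controls. DPPA3 made up most of each sum, at 1448 to 1710 TPM at high temperature and 1658 to 2287 TPM in the controls. Group means of the others went both ways. BMP15 averaged 488 TPM at high temperature against 436 TPM in the controls, and ZP2 59.3 against 60.5 TPM. Of 9 cumulus and granulosa cell markers in the table, FSHR, INHA and FOXL2 had a count of 0 in every library and the other 6 had reads. TNFAIP6 (1.80 TPM on average) and GREM1 (1.55 TPM) were the highest of them. The list summed to 3.47 to 4.45 TPM at high temperature and 3.25 to 3.94 TPM in the controls. Stromal and blood markers summed to 8.44 to 13.03 TPM at high temperature and 11.7 to 13.4 TPM in the controls. VIM (7.02 TPM on average) and PECAM1 (2.05 TPM) were the highest of them, and LUM was at 0. In these pooled libraries fewer embryos with a transcript and less of it per embryo cannot be told apart.

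Most remodelling genes were under 10 TPM in the 4-cell embryo, and a few stood far above the rest. By mean TPM over the 6 libraries, 2 genes were at or above 100, 8 lay between 10 and 100, 21 between 1 and 10, and 9 under 1. Against all 20674 protein-coding genes of the table, those without reads included, the class between 1 and 10 lay above the middle. It ran from INO80E, above 58.3% of them, to PBRM1, above 80.5%. The highest gene under 1 TPM, EP400, was above 54.6%. The 2 most abundant were SMARCA5, the ISWI ATPase also called SNF2H, and ACTL6A, the actin-like subunit that BAF shares with INO80 and EP400. SMARCA5 (chromosome 8, 84184572 to 84224943, Sscrofa11.1) had 182 ± 10.5 TPM at high temperature and 183 ± 13.9 TPM in the controls (SD, n = 3 each), and was 468th among 20674 protein-coding genes by mean TPM. ACTL6A (chromosome 13, 117598415 to 117627311) had 125 ± 54.1 TPM at high temperature and 136 ± 77.4 TPM in the controls (SD, n = 3 each). Together these genes held 51.2% to 60.0% of the summed TPM of all 40 at high temperature and 50.7% to 63.7% in the controls. The 40 genes summed to 623, 547 and 484 TPM in high temperature replicates 1, 2 and 3, against 641, 553 and 472 TPM in control replicates 1, 2 and 3. The groups overlapped over nearly their whole range.

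**Figure D1:**
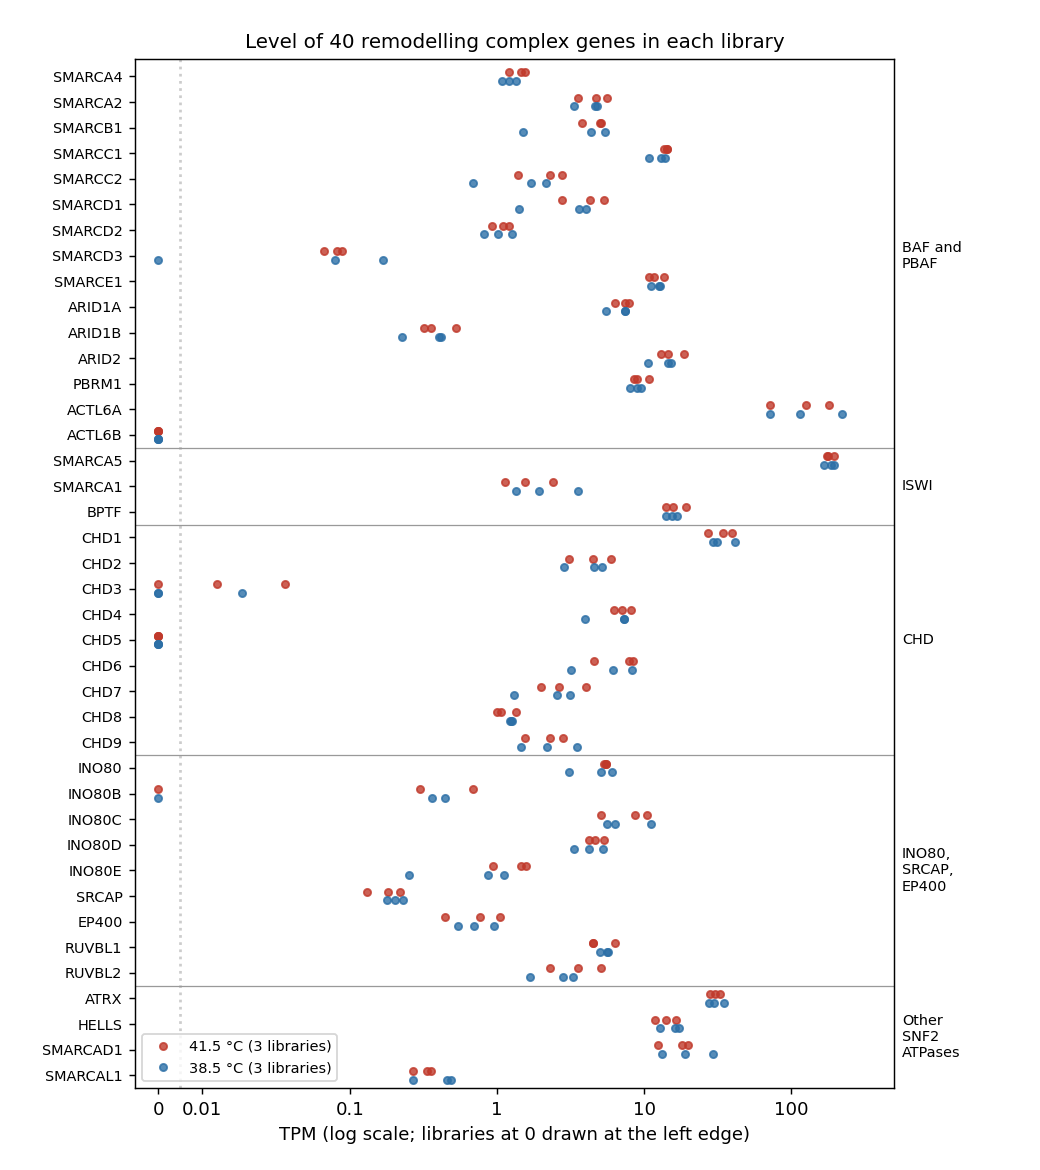
Authors' TPM of each remodelling gene in each library, on a log axis, with genes grouped by complex, one point per library (high temperature red and above, control blue and below) and libraries at 0 drawn at the left edge. SMARCA5 and ACTL6A lie at or above 100 TPM on average, and SMARCA5 averages 182 TPM at high temperature and 183 TPM in the controls.

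Within families, one member often dominated at the RNA level. On the TPM scale, mean SMARCA5 was 91.7-fold above mean SMARCA1 (SNF2L), the other mammalian ISWI ATPase. Of the BAF ATPases, SMARCA2 (BRM) was 3.38-fold above SMARCA4 (BRG1), at a mean of 4.42 against 1.31 TPM. SMARCC1 was 7.26-fold above SMARCC2, its partner in the scaffold of the complex. ARID1A was 18.6-fold above ARID1B, its alternative in the canonical BAF complex, and ARID2, the DNA-binding subunit of PBAF, was 2.06-fold above ARID1A. CHD1, which binds methylated histone H3 in active genes, was 5.08-fold above CHD4, the NuRD ATPase. These folds describe RNA levels only, and no test was made between genes.

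5 of the 40 genes did not pass the filter on low counts. ACTL6B and CHD5, whose products are best known from neurons, had 0 counts in every library, which allows up to 0.0350 CPM at high temperature and 0.0341 CPM in the controls (3 counts set against the pooled reads of a group, counting error only). CHD3, the NuRD ATPase next of kin to CHD4, had 0 to 7 counts. SMARCD3, the BAF60C subunit known from heart and muscle, had 0 to 9 counts. INO80B, a subunit of INO80, had 0 to 20 counts, more than the other 4 and still too few to test.

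No difference between temperatures passed the test for any of the 35 genes tested. With edgeR's quasi-likelihood test and Benjamini-Hochberg adjustment over all genes, 0 of the 35 had an adjusted p below 0.05, and the same held for 0% of all 16056 genes tested. The adjusted p was 0.999923 for each of the 35. Without adjustment, 0 of the 35 had a p below 0.05, against 297 of all genes (1.85%), and the smallest edgeR p was 0.152. DESeq2 also called 0 of the 35, against 5 genes in all (0.0202%). In the high temperature libraries 17 of the 35 had a fitted value above the controls and 18 below, beside 47.5% of all genes above. The median log2 fold change, high temperature over control, was -0.005 for the 35 and -0.017 for all genes, and single genes ranged from -0.51 to 0.72. The split turned to 23 above and 12 below when libraries were scaled by their total counts alone, and the median of the 35 was then 0.086 beside 0.078 for all genes.

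The fits limit how large a missed difference could be. The 95% interval of the log2 fold change lay within a 2-fold difference in either direction for 25 of the 35, against 49.7% of all genes tested. It lay within a 4-fold difference for 35 of 35, against 91.8% of all genes. The median size of the log2 fold change, whatever its sign, was 0.13 for the remodelling genes and 0.20 for all genes. The intervals come from 3 libraries a group and do not show that levels were equal. They leave the replicate number out, so differences between numbers count as spread within groups.

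**Figure D2:**
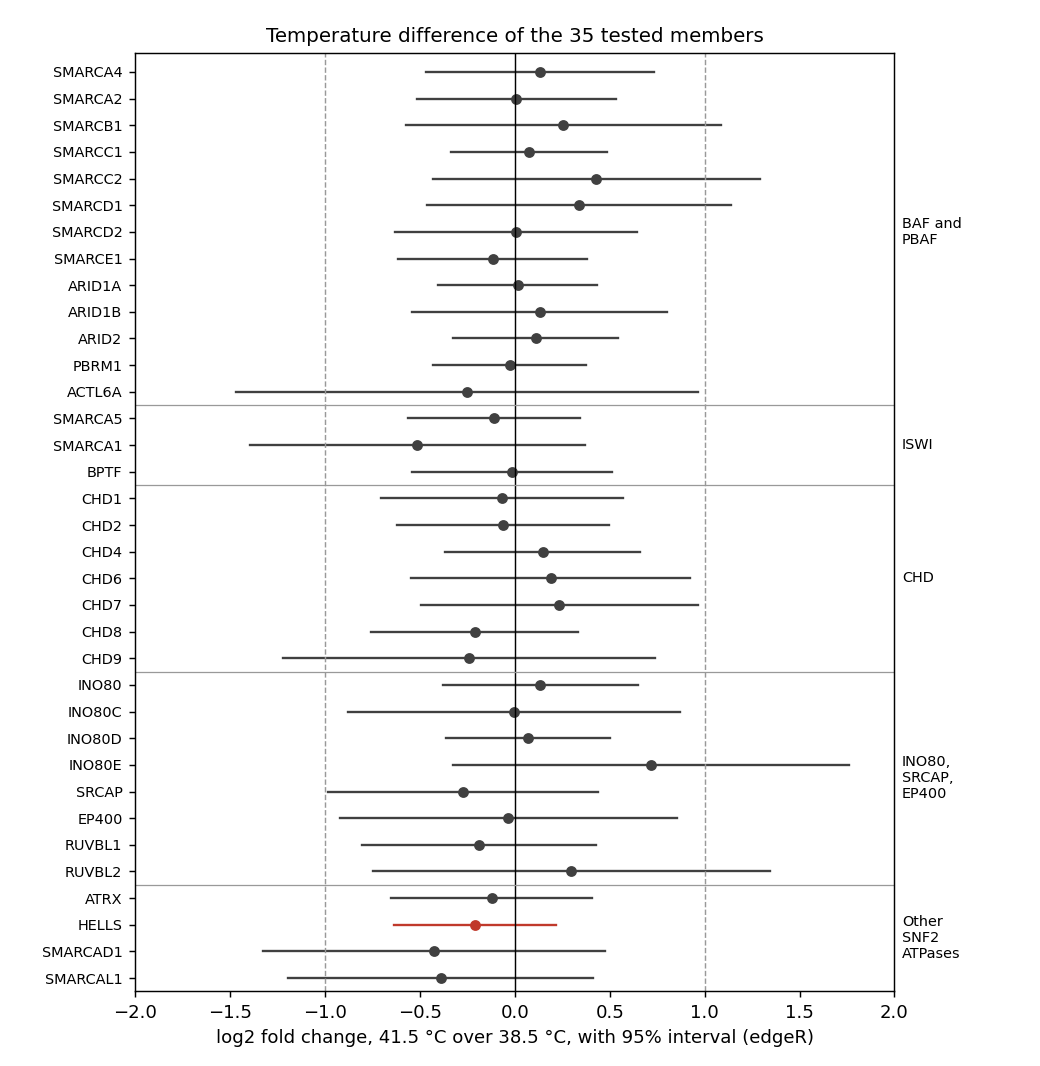
Fitted log2 fold change, high temperature over control, of the 35 tested remodelling genes with its 95% interval, grouped by complex, HELLS coloured and dashed lines at a 2-fold difference. Every interval spans 0, and the fitted values run from -0.51 for SMARCA1 to 0.72 for INO80E.

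In the BAF and PBAF complexes 13 of 15 genes were tested, with 10 above and 3 below the controls in the fit, a median log2 fold change of 0.08, and 0 called. CPM below are depth-scaled counts on TMM-scaled library sizes, given for replicates 1, 2 and 3 of each group. The ATPase gene SMARCA4 (chromosome 2, 69717175 to 69810301) had 7.02, 6.78 and 5.07 CPM at high temperature, against 7.12, 4.90 and 5.21 CPM in the controls. The groups covered the same range, and the log2 fold change of 0.13 had a 95% interval of -0.47 to 0.73. Its paralogue SMARCA2 had 15.7, 24.6 and 19.8 CPM at high temperature, against 18.2, 20.9 and 20.7 CPM in the controls. The control values of SMARCA2 lay inside the high temperature range, with a log2 fold change of 0.01, although the span of LOC110255636, which overlaps it, held reads equal to 39.9% of its own.

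Groups also overlapped for the core and scaffold subunits, with larger log2 fold changes for SMARCC2, SMARCD1 and SMARCB1 than for either ATPase. SMARCC1 had 61.5, 60.7 and 52.8 CPM at high temperature, against 55.0, 58.4 and 52.6 CPM in the controls, a log2 fold change of 0.08. SMARCC2 (chromosome 5, 21563426 to 21586790) had 5.13, 8.37 and 8.86 CPM at high temperature, against 3.04, 6.14 and 7.40 CPM in the controls. Replicate 1 was the lowest of each group, and the log2 fold change of 0.43 (95% interval -0.43 to 1.29, edgeR unadjusted p = 0.283) became 0.14 without control replicate 1. SMARCB1, the core subunit also called SNF5, had 5.07, 6.22 and 5.76 CPM at high temperature, against 2.42, 5.41 and 6.41 CPM in the controls. Its log2 fold change of 0.26 became -0.06 without control replicate 1, and DERL3, whose span overlaps 42 bases of it, held reads equal to 77.0% of its own. SMARCD1, a BAF60 subunit that links the complex to transcription factors, had 7.67, 10.9 and 12.5 CPM at high temperature, against 4.62, 9.52 and 10.4 CPM in the controls. The fitted log2 fold change was 0.34 (edgeR unadjusted p = 0.357), and 0.05 without control replicate 1.

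The subunits that tell the complexes apart did not separate the temperatures either. ARID1A had 47.1, 39.4 and 45.2 CPM at high temperature, against 40.8, 45.7 and 43.9 CPM in the controls, a log2 fold change of 0.01. ARID1B had 2.36, 2.15 and 3.17 CPM at high temperature, against 1.77, 2.66 and 2.59 CPM in the controls, a log2 fold change of 0.13. ARID2 had 101, 90.4 and 118 CPM at high temperature, against 88.1, 99.0 and 99.7 CPM in the controls, a log2 fold change of 0.11. In all of these genes the groups overlapped. PBRM1, the multiple-bromodomain subunit of PBAF, had 54.7, 58.6 and 62.3 CPM at high temperature, against 62.5, 57.9 and 58.5 CPM in the controls. GNL3, whose span overlaps 875 bases of PBRM1, held reads equal to 43.3% of those of PBRM1. The PBRM1 log2 fold change of -0.03 was 0.07 with library totals, so its direction depended on the scaling.

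Of the 10 genes at or above 10 TPM on average, ACTL6A had the widest range over the libraries. It had 256, 178 and 91.5 CPM at high temperature, against 371, 158 and 95.7 CPM in the controls. Replicate 1 was the highest and replicate 3 the lowest of each group, and the highest of the 6 libraries was 4.06-fold above the lowest. The log2 fold change was -0.25 (95% interval -1.47 to 0.97), and leaving out control replicate 1 gave 0.46 and leaving out high temperature replicate 3 gave 0.10. MRPL47, whose span overlaps 466 bases of ACTL6A, held reads equal to 28.4% of its own.

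All 3 ISWI genes were below the controls in the fit and 0 were called, with a median log2 fold change of -0.11. SMARCA5 had 724, 648 and 595 CPM at high temperature, against 821, 712 and 586 CPM in the controls. The high temperature values lay inside the control range, and the log2 fold change was -0.11 (95% interval -0.56 to 0.34) with TMM scaling, -0.002 with library totals and 0.01 without control replicate 1. BPTF, the histone-reading subunit of the NURF complex, had 132, 107 and 86.8 CPM at high temperature, against 126, 113 and 90.7 CPM in the controls, with a log2 fold change of -0.01 that was 0.09 with library totals. SMARCA1 (chromosome X, 106039961 to 106116156) had 5.03, 3.65 and 7.03 CPM at high temperature, against 7.39, 4.38 and 10.7 CPM in the controls. Its log2 fold change of -0.51 was the lowest of the 35 (95% interval -1.39 to 0.37, edgeR unadjusted p = 0.216), and was -0.17 without control replicate 3.

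Of the 9 CHD genes 7 were tested, with 3 above and 4 below the controls in the fit, a median log2 fold change of -0.06 and 0 called. CHD1 (chromosome 2, 105113149 to 105205303) had 316, 261 and 191 CPM at high temperature, against 358, 237 and 210 CPM in the controls. In each group replicate 1 was the highest and replicate 3 the lowest, and the log2 fold change of -0.07 gave 0.19 with control replicate 1 left out, 0.14 with high temperature replicate 3 left out and 0.05 with library totals. CHD4 had 31.5, 35.1 and 36.9 CPM at high temperature, against 23.4, 35.7 and 34.4 CPM in the controls, a log2 fold change of 0.15 that was -0.02 without control replicate 1. CHD8, a repressor of Wnt target genes, had 12.1, 9.52 and 8.11 CPM at high temperature, against 13.1, 10.8 and 10.6 CPM in the controls. The groups overlapped, with a log2 fold change of -0.21 and an edgeR unadjusted p of 0.398, while the overlapping LOC106504487 held reads equal to 40.2% of those of CHD8.

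Among the INO80, SRCAP and EP400 genes 8 of 9 were tested, with 4 above and 4 below the controls in the fit, a median log2 fold change of 0.03 and 0 called. INO80, the ATPase, had 21.1, 21.6 and 19.8 CPM at high temperature, against 14.6, 19.9 and 22.5 CPM in the controls, a log2 fold change of 0.13 that was -0.03 without control replicate 1. INO80E (chromosome 3, 18202092 to 18212187), a small subunit of the complex, had 2.46, 1.49 and 2.06 CPM at high temperature, against 0.5001, 1.41 and 1.73 CPM in the controls. It rested on 13 to 72 counts a library, with the fewest in control replicate 1. Its log2 fold change of 0.72 was the highest of the 35 and had the smallest edgeR unadjusted p, 0.152, with a 95% interval of -0.33 to 1.76, and it was 0.35 without control replicate 1. INO80C, the subunit of this group with the highest TPM, had 8.49, 6.95 and 3.76 CPM at high temperature, against 6.12, 8.86 and 4.28 CPM in the controls, with replicate 3 the lowest of each group.

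The other ATPases and the shared helicases overlapped as well. SRCAP, which loads H2A.Z, had 2.09, 1.70 and 1.11 CPM at high temperature, against 2.0004, 1.86 and 2.06 CPM in the controls. Its log2 fold change was -0.27, and TMEM265, whose span overlaps it on the same strand, held reads equal to 59.3% of its own. EP400, the ATPase of the TIP60 complex, had 9.89, 7.23 and 3.83 CPM at high temperature, against 7.77, 8.83 and 4.85 CPM in the controls, a log2 fold change of -0.03 that was 0.06 with library totals. RUVBL1 and RUVBL2 form the ring-shaped helicase that both INO80 and SRCAP use. RUVBL1 had 8.56, 6.01 and 5.49 CPM at high temperature, against 9.08, 7.45 and 6.37 CPM in the controls. EEFSEC, whose span overlaps 127 bases of RUVBL1, held reads equal to 13.9% of those of RUVBL1. RUVBL2 had 7.70, 4.59 and 2.91 CPM at high temperature, against 6.16, 3.90 and 2.32 CPM in the controls. Replicate 1 was the highest in both groups for both genes, with log2 fold changes of -0.19 for RUVBL1 and 0.30 for RUVBL2, the second of which was -0.14 without high temperature replicate 1.

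The 4 remaining SNF2-type ATPases were all below the controls in the fit, with a median log2 fold change of -0.30 and 0 called. HELLS (chromosome 14, 105923727 to 105967003), also called LSH, is needed in mouse for normal DNA methylation of repeats. It had 35.9, 41.9 and 45.2 CPM at high temperature, against 46.0, 47.7 and 48.4 CPM in the controls. Every high temperature value was below every control value, which held for no other gene of the 35. That is 2.86% of the 35, beside groups that did not overlap in 7.71% of all genes tested (3.66% higher and 4.05% lower at high temperature). HELLS averaged 41.0 ± 4.73 CPM at high temperature and 47.4 ± 1.23 CPM in the controls (SD, n = 3 each). The log2 fold change was -0.21 (SE 0.185, 95% interval -0.63 to 0.22, edgeR unadjusted p = 0.293). In the authors' TPM the HELLS groups overlapped, at 11.9, 14.1 and 16.4 TPM at high temperature, against 12.9, 16.2 and 17.2 TPM in the controls, and they also overlapped with library totals.

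ATRX, which places histone H3.3 at repeats, had 276, 255 and 212 CPM at high temperature, against 345, 246 and 219 CPM in the controls. A log2 fold change of -0.12 was 0.09 without control replicate 1. SMARCAD1 (chromosome 8, 125410221 to 125488471), which helps restore silent chromatin after replication, had 70.2, 62.8 and 39.7 CPM at high temperature, against 123, 65.4 and 43.8 CPM in the controls. The value of control replicate 1 stood far above the other 5 libraries, and the log2 fold change of -0.43 (95% interval -1.33 to 0.47, edgeR unadjusted p = 0.307) was 0.08 without it. SMARCAL1, an annealing helicase at stalled replication forks, had 0.650, 0.869 and 0.719 CPM at high temperature, against 0.769, 1.07 and 1.10 CPM in the controls, a log2 fold change of -0.39 with an edgeR unadjusted p of 0.294.

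**Figure D3:**
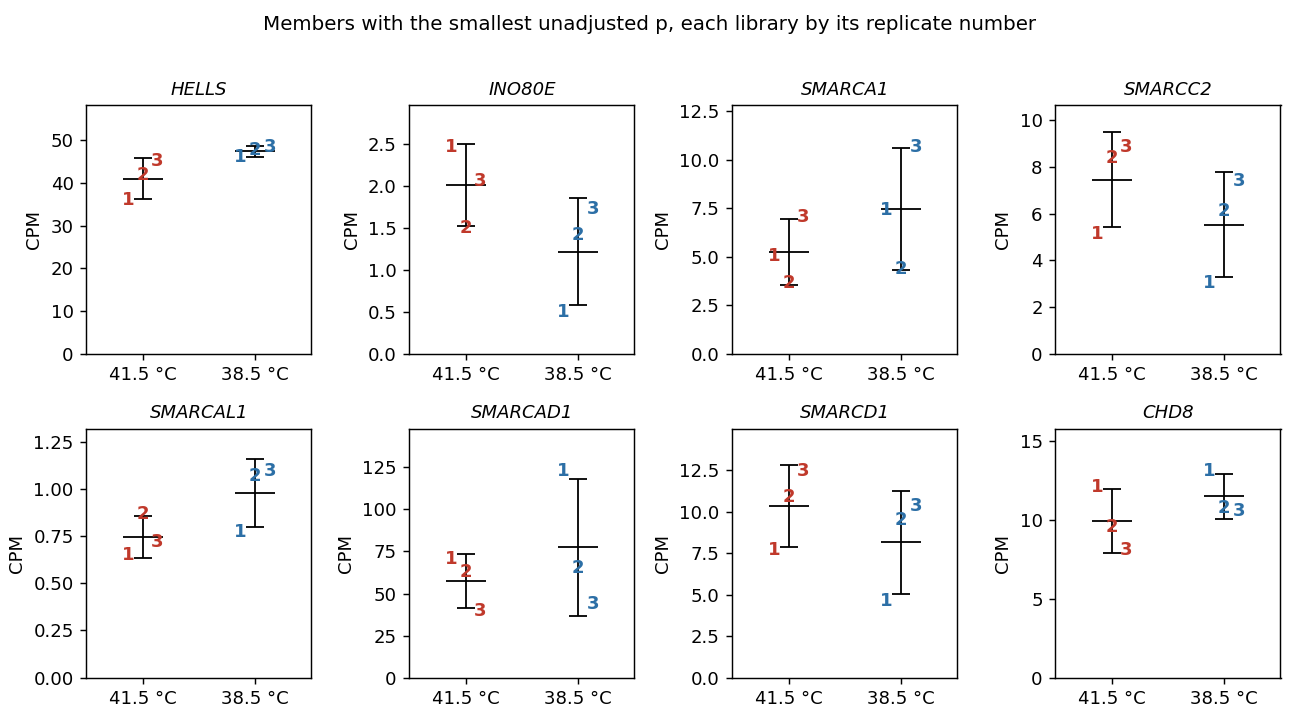
CPM on TMM-scaled library sizes of the 8 remodelling genes with the smallest unadjusted edgeR p, one panel a gene, high temperature left of control, with one point a library, a bar at each group mean and error bars of 1 SD. The groups overlap in 7 panels and do not overlap for HELLS, at 35.9 to 45.2 CPM at high temperature and 46.0 to 48.4 CPM in the controls.

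Single libraries of a group spread more widely than the 2 group means lay apart. The highest of 3 libraries was a median 1.49-fold above the lowest within the high temperature group and 1.52-fold within the controls, while the fold between group means, taken as larger over smaller, had a median of 1.10 and a maximum of 1.65. In 31 of the 35 genes the fold between means was below the within-group fold of both groups. A range over 3 single libraries tends to exceed a gap between means of 3 even where groups do not differ. The comparison therefore describes the spread and cannot decide whether temperature had an effect, and no share over all genes is given for it.

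Control replicate 1 held an extreme value for most of the genes. It was the lowest of the 6 libraries for 12 of the 35 (34.3%, against 26.1% of all genes) and the highest for 11 (31.4%, against 27.6% of all genes). The lowest set held SMARCB1, SMARCC2, SMARCD1, ARID1B, ARID2, CHD2, CHD4, CHD6, CHD7, INO80, INO80D and INO80E. The highest set held SMARCA4, SMARCE1, PBRM1, ACTL6A, SMARCA5, CHD1, CHD8, CHD9, RUVBL1, ATRX and SMARCAD1. High temperature replicate 3 was the lowest for 11 of the 35 (31.4%, against 21.5% of all genes) and the highest for 6 (17.1%, against 21.8%). Of the 12 genes lowest in control replicate 1, 8 were also at their lowest heated value in high temperature replicate 1, and of the 11 highest there, 8 were at their highest heated value in high temperature replicate 1. Leaving out control replicate 1 turned the sign of the log2 fold change for 18 of the 35, against 8 without high temperature replicate 3, 5 without high temperature replicate 1, 3 without control replicate 2, and 2 each without high temperature replicate 2 or control replicate 3. The log2 fold changes of the 35 had a median size of 0.13, and a sign turns easily where a value lies near 0. No share over all genes is given for these sign turns or for the matches with high temperature replicate 1. They are therefore not read as a trait of these genes. What sets control replicate 1 apart was not tested.

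**Figure D4:**
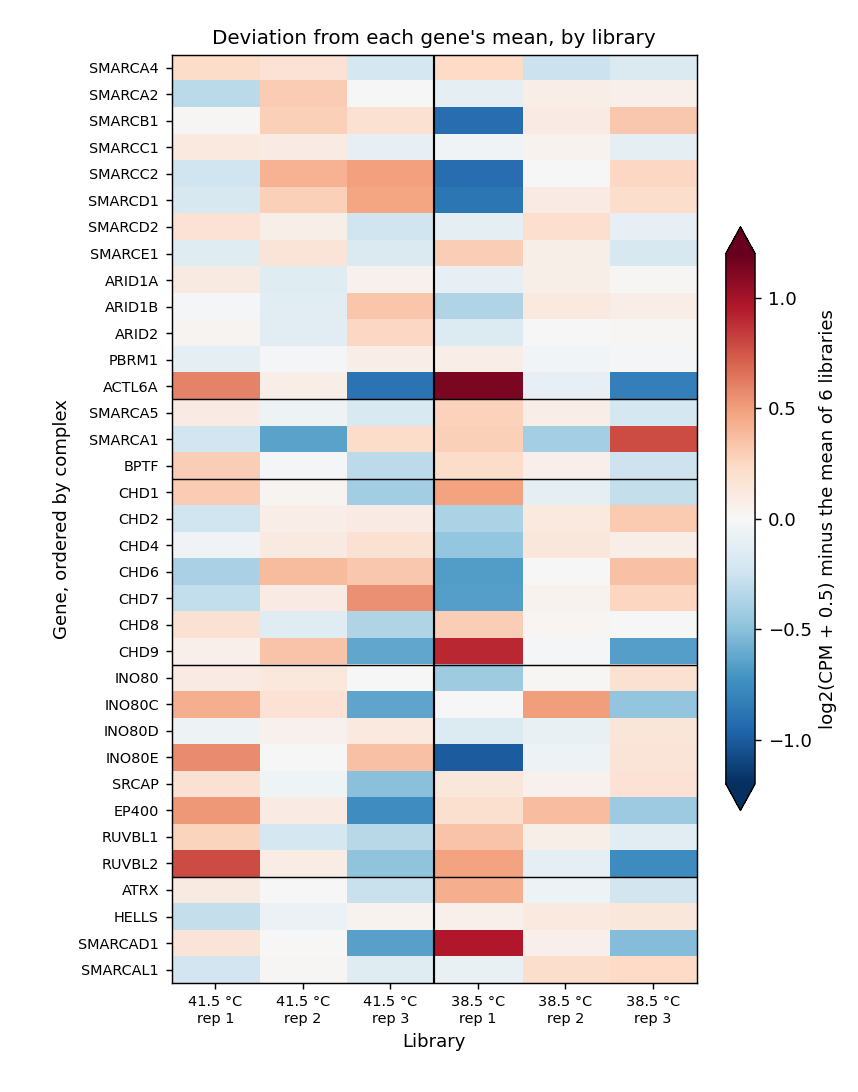
Log2(CPM + 0.5) of each tested remodelling gene in each library as a difference from that gene's mean over the 6 libraries, high temperature libraries left of control libraries, with red above and blue below the mean and a colour scale capped at both ends. Control replicate 1 holds the lowest value for 12 genes and the highest for 11, and high temperature replicate 3 the lowest for 11 and the highest for 6.

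The balance between paralogues was compared within libraries, since a ratio of TPM values does not depend on the scaling of a library. Of 6 pairs, 5 were tested with an exact permutation test on the log2 ratio, two-sided, for which 3 against 3 libraries cannot give a p below 0.1. The SMARCA4 to SMARCA2 ratio was 0.438, 0.262 and 0.257 at high temperature, against 0.406, 0.236 and 0.252 in the controls, and replicate 1 had the highest ratio in each group. The difference in log2 ratio was 0.10 (exact permutation p = 0.5). The SMARCA5 to SMARCA1 ratio was 126, 155 and 73.6 at high temperature, against 96.4, 143 and 46.8 in the controls, a difference of 0.38 (exact permutation p = 0.6). ARID1A to ARID1B stood at 20.9, 19.6 and 15.04 at high temperature, against 24.0, 18.2 and 17.8 in the controls, a difference of -0.11 (exact permutation p = 0.6). These ranges overlapped throughout.

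SMARCC1 to SMARCC2 was 10.3, 6.20 and 4.91 at high temperature, against 15.6, 8.14 and 6.07 in the controls, a difference of -0.43 (exact permutation p = 0.6). RUVBL1 to RUVBL2 was 1.26, 1.26 and 1.94 at high temperature, against 1.72, 1.98 and 2.98 in the controls. The difference of -0.58 had the smallest p of the 5 pairs (exact permutation p = 0.2), with overlapping groups and replicate 3 the highest of each. Adjusted over the 5 pairs, each exact permutation p was 0.6. The permutation took no account of the replicate number. Compared number by number, the high temperature ratio was always the lower for SMARCC1 to SMARCC2 and RUVBL1 to RUVBL2. It was always the higher for SMARCA4 to SMARCA2 and SMARCA5 to SMARCA1, and it was mixed for ARID1A to ARID1B. The labels do not say what a number shares, and this pattern was not tested. CHD3 to CHD4 was not tested, since CHD3 had 0 counts in 3 libraries.

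**Figure D5:**
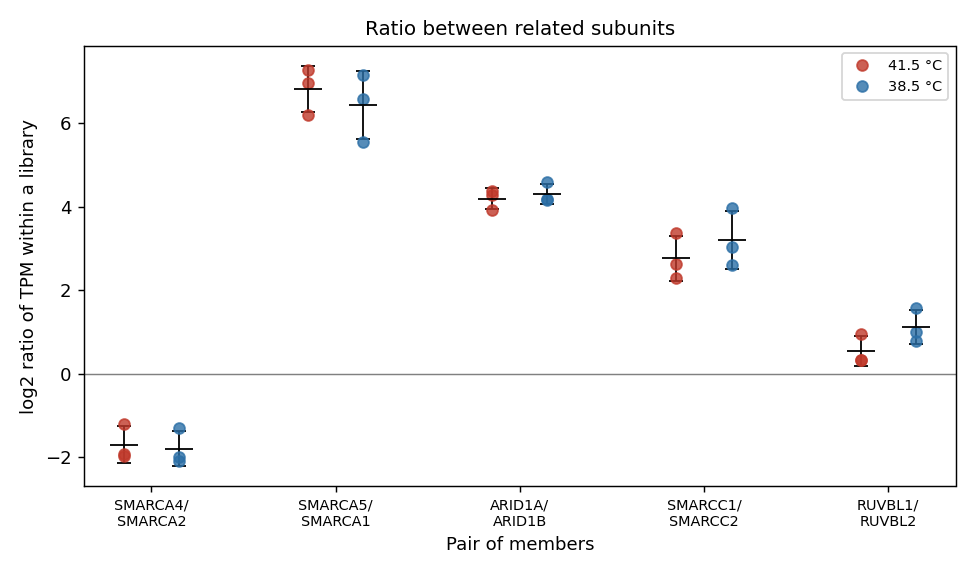
Log2 ratio of authors' TPM for 5 pairs of related remodelling genes in each library, high temperature left of control, one point a library, a bar at each group mean and error bars of 1 SD. The groups overlap in every pair, and the RUVBL1 to RUVBL2 ratio, before the logarithm, lies between 1.26 and 1.94 at high temperature and between 1.72 and 2.98 in the controls.

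Further subunits of the same complexes, their histone cargoes and chaperones were taken from lists of 71 symbols, some of them older and newer names of one gene. The table held 63, and 59 were tested, while DPF1, BICRA, BCL11B and MTA1 did not pass the filter on low counts. In the fit 30 were above and 29 below the controls, 0 were called, and the median log2 fold change was 0.009. The most abundant of each list were BRD7 of PBAF (83.0 TPM on average), BAZ1A of the ISWI complexes (70.2), RBBP7, a histone-binding subunit of NuRD (273), UCHL5, a deubiquitinase of INO80 (170.3), H2AFZ, which encodes H2A.Z (3375), and H3F3A, which encodes H3.3 (1329). Histone genes have near-identical copies between which reads may have been split, so both values are uncertain.

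Groups did not overlap for 3 of the 59 subunits and cargoes (5.08%, beside 7.71% of all genes). SS18, a BAF subunit, had 57.9, 60.1 and 59.2 CPM at high temperature, against 78.6, 70.0 and 61.3 CPM in the controls, a log2 fold change of -0.24. BAZ2A, the SMARCA5 partner in the nucleolar NoRC complex, had 43.9, 38.4 and 37.1 CPM at high temperature, against 31.2, 36.5 and 33.9 CPM in the controls, a log2 fold change of 0.23. MTA2, a NuRD subunit, had 4.72, 3.54 and 3.27 CPM at high temperature, against 2.58, 3.17 and 2.82 CPM in the controls, a log2 fold change of 0.43. The groups of BAZ2A and MTA2 were also apart with library totals and in TPM, and those of SS18 overlapped with both.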

How the data were processed

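Poly(A) RNA was captured on beads and libraries were made with SMART-Seq v4, which does not mark strand, per the labels' protocols. The authors deposited raw counts per gene with FPKM and TPM values, per the file headers. The build was Sscrofa11.1, and StringTie 2.1.3b, HISAT2 2.1.0, Bowtie2, HISAT and Trimmomatic 0.38 were used, per the submitters' processing notes. Which program counted reads was not stated there, so reads of overlapping genes may have been assigned to either. The authors' FPKM served to check columns against libraries (99.4% to 99.5% of genes equal within 1e-05).

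Counts were tested with edgeR 4.0.16 (R 4.3.3; TMM, filterByExpr with a minimum count of 10, quasi-likelihood, group alone) on 16056 genes. Adjusted p-values are Benjamini-Hochberg over all of them, with a threshold of 0.05. The 24 genes without a symbol held 0.527% to 0.658% of counts. TPM was not rescaled. Alternatives were DESeq2 1.42.0, limma 3.58.1 on log2(TPM + 1) and log2(TPM + 0.1) with mean TPM above 1, other scalings, no filter, a replicate block, and libraries left out. The members and lists were chosen with earlier results of these data known. Genes described singly were those with groups apart, the 8 with the smallest p, a list of core subunits, and the most abundant and untested ones. Positions and overlaps came from the gene coordinates deposited with a single library. The positions of the members matched a RefSeq gene table of Sscrofa11.1 (40 of 40), which gave the chromosomes. The overlapping genes were not checked against it. Percentages given for an overlapping gene use all of its reads, not those in the shared stretch alone.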

Additional observations from a re-analysis of the deposited data

How the results depend on the processing

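None of the 35 genes had an adjusted p below 0.05 under any alternative run (lowest 0.384). Of the 35, 7 kept the direction of their log2 fold change under every alternative that gave a value (SMARCA4, SMARCC1, SMARCA1, INO80E, SRCAP, HELLS and SMARCAL1), and 28 did not. The cause was not tested, and no share over all genes is given for this count. Genes called among all tested were 0 in the edgeR test, 1 without the filter on low counts, 5 with DESeq2 and 1 without both control replicate 1 and high temperature replicate 3. With 3 libraries a group, the intervals of the edgeR test without a block bounded 25 of the 35 within 2-fold. With the replicate number as a block they bounded 33 of the 35, beside 11130 of all 16056 genes.

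The labels do not say what a replicate number shares. Over 16056 genes same-numbered deviations from group means correlated at 0.64, -0.0023 and 0.72 for numbers 1, 2 and 3. Different numbers correlated at -0.70 for high temperature 3 with control 1, and at -0.65 for high temperature 1 with control 3. The remaining pairs lay between -0.21 and 0.18. Libraries of numbers 1 and 3 thus differed in a like way at both temperatures. The main test left the number out, so such differences count there as spread within groups and widen its intervals. Over the 35 genes alone same-numbered deviations correlated at 0.71, 0.26 and 0.89. There, unlike over all genes, every library correlated best with its own number. The number held a median 76.0% of the sum of squares of log2 CPM in the 35 genes (67.0% in all genes), and the group 8.77% (8.64% in all genes). The number has more levels than the group, so it takes a larger share even where neither has an effect. The difference had one direction in all 3 numbers for 12 of the 35 (34.3%, beside 34.5% of all genes). With the number as a block, 3 genes were called and 0 of the 35, and 2 of the 35 had an unadjusted edgeR p below 0.05, SMARCC2 at 0.029 and SMARCA1 at 0.025, beside 1485 of all genes (9.25%).

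The median log2 fold change of the 35 genes, -0.005, was 0.086 with library totals, 0.082 on log2(TPM + 1) and 0.098 on log2(TPM + 0.1). That of the further subunits, 0.009, was 0.077, 0.058 and 0.065 with those settings. Over all genes tested the median, -0.017, also rose, to 0.078, 0.038 and 0.047. The TPM scales took 31 of the 35 genes and 50 of the 59 further subunits. Groups apart numbered 0 of 35 with library totals (beside 7.36% of all genes) and 0 of 31 on both TPM scales (beside 5.9% of all genes). They numbered 2 to 6 with one library left out (5.56% to 17.1%, beside 12.7% to 18.5% of all genes). Without both libraries named above the count was 11 (31.4%, beside 46.4% of all genes). A block leaves the count of the main fit as it is.

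Directions turned with library totals for PBRM1 (0.074), BPTF (0.086), CHD1 (0.045), CHD2 (0.014), INO80C (0.079) and EP400 (0.057). On log2(TPM + 1) they turned for PBRM1 (0.080), BPTF (0.065), CHD2 (0.082) and INO80C (0.062), and on log2(TPM + 0.1) for the same genes (0.087, 0.068, 0.098 and 0.069). SMARCA2 was -0.0016 with DESeq2's size factors in edgeR, -0.0028 with DESeq2 and -0.0120 with the block. SMARCD2 was -0.0011 with those size factors, -0.00051 without the filter, -0.0030 with DESeq2 and -0.00021 with the block.

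With one library, or both named above, left out, log2 fold changes ran as follows where a direction turned: -0.17 to 0.15 for SMARCA2, -0.077 to 0.53 for SMARCB1, -0.014 to 0.70 for SMARCC2, -0.11 to 0.55 for SMARCD1, -0.11 to 0.17 for SMARCD2, -0.24 to 0.065 for SMARCE1, -0.059 to 0.082 for ARID1A, -0.22 to 0.24 for ARID1B, -0.061 to 0.19 for ARID2, -0.0497 to 0.0189 for PBRM1, -0.63 to 0.77 for ACTL6A, -0.23 to 0.071 for SMARCA5, -0.18 to 0.23 for BPTF, -0.25 to 0.36 for CHD1, -0.31 to 0.096 for CHD2, -0.083 to 0.25 for CHD4, -0.16 to 0.44 for CHD6, -0.25 to 0.44 for CHD7, -0.38 to 0.011 for CHD8, -0.55 to 0.52 for CHD9, -0.026 to 0.27 for INO80, -0.26 to 0.30 for INO80C, -0.048 to 0.16 for INO80D, -0.37 to 0.32 for EP400, -0.41 to 0.068 for RUVBL1, -0.14 to 0.98 for RUVBL2, -0.26 to 0.18 for ATRX, -0.72 to 0.28 for SMARCAD1. The log2 ratios ran -0.21 to 0.17 for ARID1A/ARID1B, -0.16 to 0.47 for SMARCA4/SMARCA2, -0.0596 to 0.77 for SMARCA5/SMARCA1 and -0.73 to 0.18 for SMARCC1/SMARCC2.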
